A study of Mus musculus with 11 samples.

Results

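Elastic fibre genes were examined in RNA-seq libraries of primary mouse bone marrow mesenchymal stromal cells, the adherent stromal cells of the marrow that can differentiate into bone, cartilage and fat and support haematopoiesis. The group was chosen by gene name and holds 10 genes, Eln, Fbn1, Fbn2, Mfap4, Mfap5, Ltbp4, Fbln5, Efemp2, Lox and Loxl1. All 10 were found among the 18712 genes present in both deposited tables, and all 10 passed the filter on low values in every comparison. The cells came from untreated wild type C57/BL6 mice (4 libraries), from ANXA2 KO C57/BL6 mice (3 libraries) and from ANXA5 KO C57/BL6 mice (4 libraries). Anxa2 and Anxa5 encode annexins, proteins that bind membrane phospholipids when calcium is present. Age, passage, and the design of either knockout allele were not given in the sources used here. The labels also do not state that the libraries of a group came from separate animals, so p-values here reflect only how far these libraries spread. Part of that spread may be technical. Xist, the RNA of the inactive X chromosome, was at 1726 and 2409 reads in wild type libraries 1 and 2 and at 1 read each in 3 and 4. The wild type libraries were thus not all technical repeats of the same culture. In the ANXA5 knockout, library 2 had 2 Xist reads and the others 645 to 1776.

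An elastic fibre has a core of cross-linked elastin and a sheath of microfibrils built on fibrillin. Soluble tropoelastin is carried onto the microfibrils by fibulins, its lysines are oxidised by lysyl oxidases, and the oxidised residues join neighbouring chains into a rubber-like polymer. The same microfibrils bind latent TGF-beta complexes, and in tissues such as lung, skin and arterial wall the fibres give stretch and recoil.

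The libraries held 23.3 to 35.7 M reads over the genes of the tables. The targeted gene was lower in every library of its knockout. Anxa2 stood at 8542 ± 1691 normalised reads (SD, n = 3) in the ANXA2 knockout and at 29822 ± 1354 (SD, n = 4) in the wild type, with a log2 difference of -1.82 (limma adjusted p = 0.00191). Anxa5 stood at 2359 ± 57.4 (SD, n = 4) against 25529 ± 1704 (SD, n = 4) in the ANXA5 knockout table, a log2 difference of -3.43 (limma adjusted p = 1.91e-08). Normalised reads are reads divided by a size factor of the library, and the 2 tables were scaled separately, so the same wild type library has a different value in each. The 10 stromal markers, such as Col1a1 and Pdgfra, were found in the tables, while the smooth muscle gene Myocd and the adipocyte genes Plin1, Cidec and Lep were not among the genes listed. Summed macrophage markers (68543 to 142801 normalised reads) and neutrophil markers (243954 to 582362) in the ANXA2 table were also far above 0. In bulk RNA, fewer cells of a type and less RNA per cell cannot be told apart.

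In the wild type, Ltbp4, Mfap5 and Fbn1 had the highest levels per length. Levels are given as reads per kilobase of transcript per M reads, with the length of the longest principal transcript of each gene. Ltbp4, a latent TGF-beta binding protein that also assists the linear deposition of elastin, stood at 478 ± 75.5 (SD, n = 4), and Mfap5, a small microfibril glycoprotein, at 334 ± 82.0. Fbn1, which encodes the main fibrillin of adult microfibrils, followed at 140 ± 55.3. Loxl1, a lysyl oxidase tied to elastin, stood at 85.4 ± 14.8 and Eln itself, the gene of tropoelastin, at 77.5 ± 11.1. These levels move with the length used. Over all annotated exons Mfap5 (3.59 kb in place of 1.51 kb) would stand at 140.2, level with Fbn1 at 138, and Eln (8.10 kb in place of 3.85 kb) at 36.9.

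The other members lay lower on the same per-length scale. Fbln5, a fibulin that brings tropoelastin and Loxl1 together, stood at 54.9 ± 13.6 (SD, n = 4), and Efemp2, the fibulin that binds Lox, at 51.1 ± 4.07. Lox, the enzyme that cross-links both collagen and elastin, stood at 42.7 ± 7.07 and Mfap4, an extracellular protein that binds elastin and fibrillin, at 42.5 ± 19.0. Fbn2, the fibrillin best known from embryonic tissue, had only 0.414 ± 0.219. In this order, the ranges of the 4 wild type libraries were separate only between Mfap5 and Fbn1 and between Mfap4 and Fbn2, and every other pair of neighbours overlapped. Library by library, Fbn1 was above Loxl1, Eln above Fbln5 and Efemp2 above Lox in 4 of 4. Ltbp4 was above Mfap5 and Fbln5 above Efemp2 in 3 of 4, and Loxl1 above Eln and Lox above Mfap4 in 2 of 4. The members together held 0.527 to 0.698% of the wild type reads, 0.623 to 0.814% of those of the ANXA2 knockout and 0.504 to 0.713% of those of the ANXA5 knockout. In both knockouts the mean of Eln lay above that of Loxl1, at 127 ± 45.3 (SD, n = 3) in the ANXA2 and at 102 ± 25.8 (SD, n = 4) in the ANXA5 knockout, with overlapping ranges. Eln was above Loxl1 in 1 of 3 ANXA2 and 3 of 4 ANXA5 knockout libraries. Over all annotated exons Eln lay below Loxl1, at 60.6 against 106 in the ANXA2 and 48.4 against 86.8 in the ANXA5 knockout. Ltbp4, Mfap5 and Fbn1 kept the top of the order and Fbn2 its end in each genotype.

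**Figure D1:**
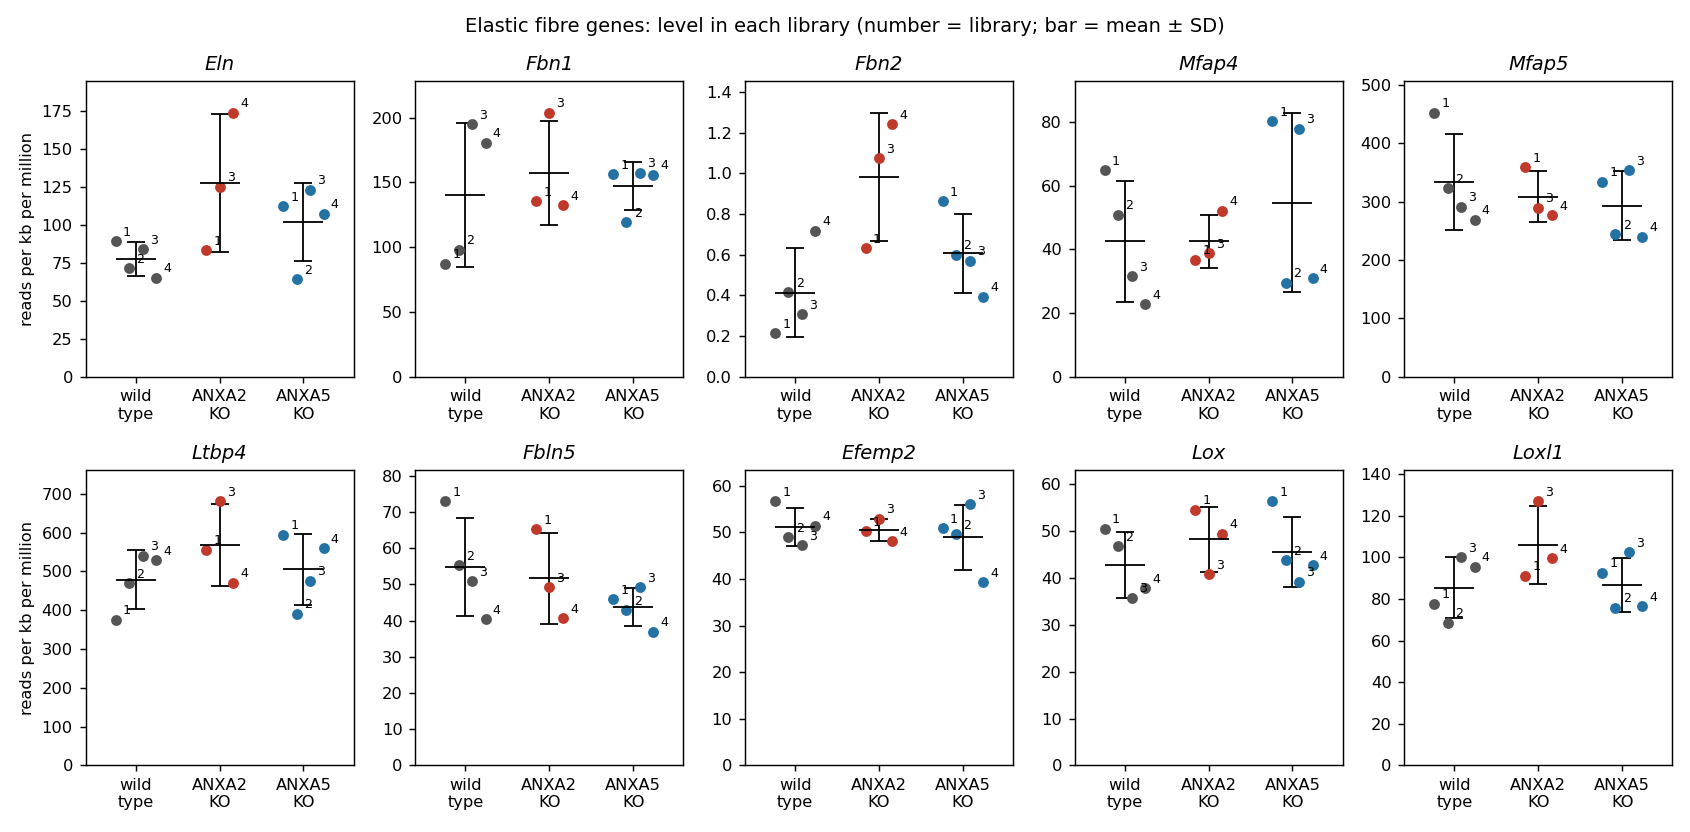
Level of each elastic fibre gene in reads per kb of transcript per M reads (linear axis from 0, one panel per gene with its own scale), by genotype. Points are libraries with their number, horizontal bars the mean and whiskers the SD (n = 4 wild type, 3 ANXA2 and 4 ANXA5 knockout); Eln has its highest library at 174 in the ANXA2 knockout, and Fbn2 stays below 1.3 throughout.

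None of the 10 elastic fibre genes passed the adjusted threshold in the ANXA2 knockout, by limma, edgeR or DESeq2, whereas 0.112% of the 16123 genes tested did by limma and 0.645% by DESeq2. With the log2 value of Xist as a covariate, 0 members and 1.76% of all genes passed. All 10 had a log2 difference above 0, with a median of 0.34, against 54.1% of all genes tested and a median of 0.023. Markers of several cell types also lay above 0, with 9 of 10 stromal markers (median 0.22) and 7 of 8 endothelial markers (median 0.39). So did 6 of 8 osteoblast (0.31), 8 of 8 neutrophil (0.20) and 3 of 5 adipocyte markers (0.35). Medians were nearer 0 for smooth muscle (6 of 8, 0.085), adventitial (6 of 10, 0.032) and macrophage markers (6 of 10, 0.054). With reads divided by the library total, 6 of 10 stromal markers were above 0 (median 0.080). None of these markers passed, and their part in the members' differences was not tested. At an unadjusted limma p under 0.05 stood 3 of the 10 members, Fbn2, Eln and Loxl1, beside 8.69% of all genes. The count above 0 depended on the scaling. When reads were divided by the library total, the median of all genes moved from 0.023 to -0.12, and 7 of the 10 members then lay above 0 with a median of 0.20, Fbln5, Efemp2 and Mfap5 being below it. The count was also 7 without wild type library 4 and 8 without ANXA2 knockout library 1.

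**Figure D2:**
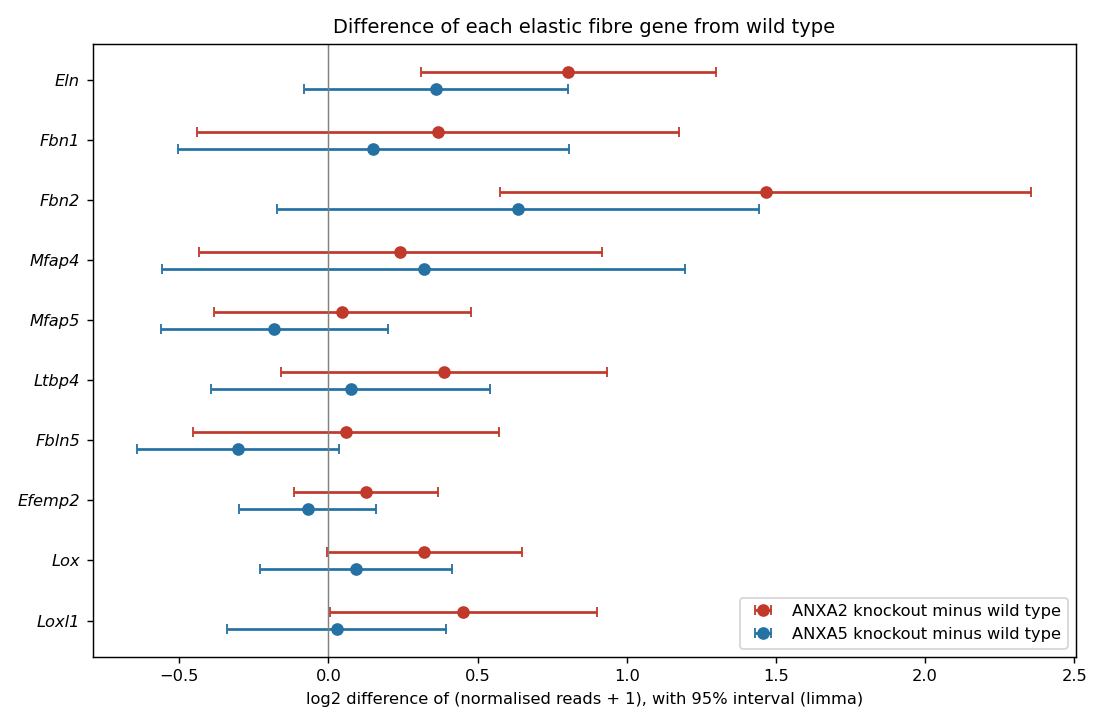
Log2 difference from wild type of each elastic fibre gene on the log2 (normalised reads + 1) scale, with its 95% interval from limma, for the ANXA2 knockout (red) and the ANXA5 knockout (blue), which share the 4 wild type libraries. The ANXA2 intervals of Eln, Fbn2 and Loxl1 lie above 0, and each ANXA5 interval includes 0.

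Eln, the core of the fibre, had the clearest separation. It stood at 9464, 13699 and 17841 normalised reads in ANXA2 knockout libraries 1, 3 and 4, whereas wild type libraries 1 to 4 had 8497, 6656, 8868 and 6553. Every knockout library was thus above every wild type library, knockout library 1 only by a small step, and Eln was the only member whose groups did not overlap (4.56% of all genes were separate with the knockout higher and 4.63% with it lower). The mean was 13668 ± 4189 (SD, n = 3) against 7643 ± 1210 (SD, n = 4), a log2 difference of 0.80 with a standard error of 0.22 (limma adjusted p = 0.471). The difference was 0.59 without knockout library 4 and 1.05 without knockout library 1. In the per-length levels, which are scaled by the library total, knockout library 1 (83.1) lay within the wild type range of 65.1 to 89.3. In the authors' deposited table Eln had a log2 fold change of 0.84 and an adjusted p of 0.0519, and the DESeq2 fit on recovered reads gave an adjusted p of 0.0525.

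Myeloid markers stood in the same order as Eln across the ANXA2 knockout libraries, but not within the other groups. The sum of the 10 macrophage markers was 68543, 92616 and 142801 normalised reads in knockout libraries 1, 3 and 4, and that of the 8 neutrophil markers 243954, 351727 and 582362. The wild type ranges were 69884 to 107876 and 259911 to 447117, so both sums overlapped between the groups although Eln did not. Wild type library 4 had the highest of both sums and the lowest Eln of its group (6553). ANXA5 knockout library 2 had the highest sums of its group, 134450 and 545476 on the scale of its table, and the lowest Eln (6937). Of the macrophage markers 6 of 10 and of the neutrophil markers 8 of 8 were above 0 in the ANXA2 difference. Of either list, 0 passed the limma threshold there, and their part in the Eln difference was not tested.

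Fbn2 had the largest difference of the 10 and the lowest level. It stood at 206, 338 and 365 normalised reads in ANXA2 knockout libraries 1, 3 and 4, whereas wild type libraries 1 to 4 had 58.3, 111, 93.2 and 207. The groups overlapped only through wild type library 4, which was as high as knockout library 1. The mean was 303 ± 85.2 (SD, n = 3) against 117 ± 63.8 (SD, n = 4), a log2 difference of 1.47 with a standard error of 0.39 (limma adjusted p = 0.471). With the Xist covariate, the difference was 1.66 (limma adjusted p = 0.0612). The values rested on 55 to 380 recovered reads a library over all genotypes, and the 55 reads of wild type library 1 have a 95% Poisson interval of 41.4 to 71.6, which covers counting error only.

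Fbn1, by contrast, was spread widely within the wild type. It stood at 47957, 69343 and 42258 normalised reads in ANXA2 knockout libraries 1, 3 and 4, against 25804, 28364, 63903 and 56479 in the wild type, in the order of the library numbers. The first pair of wild type libraries, 1 and 2, was low and 3 and 4 high, the knockout libraries lay between or above them, and the highest wild type value was 2.48 times the lowest. The log2 difference was 0.37 with a 95% interval of -0.44 to 1.17 (limma adjusted p = 0.756). It was 0.15 without wild type library 1, 0.20 without wild type library 2, 0.16 without knockout library 3 and 0.59 without wild type library 3. Set against each other per length, Fbn2 made up 0.463 to 0.929% of both fibrillins in the ANXA2 knockout and 0.158 to 0.423% in the wild type. The share did not overlap between these groups, and in either it stayed under 1%. The other ratios computed between members all overlapped between these groups, such as Eln over Fbn1 (0.61 to 1.31 in the knockout, 0.36 to 1.02 in the wild type). Ratios of genes outside the group were not computed.

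The remaining microfibril genes all overlapped between the groups. Ltbp4 had 88360, 104146 and 67524 normalised reads with ANXA2 knocked out and 49878, 61085, 79713 and 74421 in the wild type, a log2 difference of 0.39 (limma adjusted p = 0.624). Its lowest wild type libraries were 1 and 2, as for Fbn1. Mfap4 had 1871, 1899 and 2393 normalised reads in the knockout, all within the wild type values of 2757, 2119, 1488 and 1023, with a log2 difference of 0.24. Mfap5 had a log2 difference of 0.046 with a 95% interval of -0.39 to 0.48.

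The fibulins were nearly level with the wild type in the ANXA2 knockout. Fbln5 had 8564 ± 2485 normalised reads (SD, n = 3) against 8147 ± 1789 (SD, n = 4), a log2 difference of 0.058 with a 95% interval of -0.46 to 0.57. Efemp2 had 3754 ± 324 against 3439 ± 240.5, a log2 difference of 0.13 with a 95% interval of -0.12 to 0.37. The interval of Efemp2 was the narrowest of the 10.

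Of the cross-linking enzymes, Loxl1 stood at 8873, 11888 and 8759 normalised reads in ANXA2 knockout libraries 1, 3 and 4, against 6317, 5467, 9047 and 8218 in the wild type. Only wild type library 3 reached into the knockout range. The log2 difference was 0.45 with a standard error of 0.20 (limma adjusted p = 0.573). With the Xist covariate it was 0.58 (limma adjusted p = 0.0846). Loxl1 lies on chromosome 9, 11.1 Mb from the start of Anxa2 in GRCm38, and is the only member on the chromosome of Anxa2. Lox had 7637, 5497 and 6246 normalised reads with ANXA2 knocked out and 5909, 5354, 4639 and 4678 in the wild type, a log2 difference of 0.32 with a standard error of 0.14 (limma adjusted p = 0.573).

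In the ANXA5 knockout, also, none of the 10 members passed the threshold by limma, edgeR or DESeq2 (0.0308% of the 16224 genes tested passed by limma, 1.74% by DESeq2 and 0.037% with the Xist covariate), and 0 had an unadjusted limma p under 0.05, against 11.9% of all genes. Their median log2 difference was 0.084, with 7 of 10 above 0, beside 0.011 and 52.0% for all genes tested. In 0 of the 10 were the groups separate, where 3.01% of all genes were separate with the knockout higher and 3.36% with the knockout lower. This comparison uses the same 4 wild type libraries as the ANXA2 comparison, so the sets of differences are not independent. Without knockout library 1 or without wild type library 1, 4 members were above 0 and the median was -0.031 or -0.034.

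Eln stood at 12730, 6937, 12355 and 11915 normalised reads in ANXA5 knockout libraries 1 to 4, and at 9293, 7285, 9794 and 7185 in the wild type libraries on the scale of this table. Libraries 1, 3 and 4 of the knockout were above every wild type library and library 2 was below all of them. The log2 difference was 0.36 with a standard error of 0.20 and a 95% interval of -0.080 to 0.80 (limma adjusted p = 0.489), and it was 0.57 without knockout library 2. Library 2 also had the lowest Fbn1, Ltbp4, Loxl1, Mfap4 and Mfap5 of the knockout, while Fbn2, Fbln5, Efemp2 and Lox were lowest in other libraries. Its sum of stromal markers was the lowest of the knockout, 610201 normalised reads against 718071 to 893840. Its sum of neutrophil markers was the highest, 545476 against 366757 to 469578 in the other knockout libraries. The part of these in its Eln level was not tested.

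Fbln5 had the smallest unadjusted p of the 10 in the ANXA5 knockout, and its direction was lower. It stood at 7884, 6996, 7489 and 6215 normalised reads in knockout libraries 1 to 4, and at 11483, 8532, 8982 and 6757 in the wild type. The knockout libraries all lay below the wild type mean of 8939 ± 1949 (SD, n = 4), but wild type library 4 was within their range. The log2 difference was -0.30 with a standard error of 0.15 (limma adjusted p = 0.455). Mfap5 was also lower, at 12359 ± 2325 against 14043 ± 2989, a log2 difference of -0.18 (limma adjusted p = 0.674).

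Mfap5 is also a gene of adventitial fibroblasts, and the markers of those cells moved beside both genes. Of 10 adventitial markers, 0 were above 0 in the ANXA5 knockout, and their sum was 158605 to 175188 normalised reads against 178217 to 250374 in the wild type. Pi16, a surface protein of these fibroblasts, had a log2 difference of -1.04 (limma adjusted p = 0.23) and Dpp4, another, of -0.53 (limma adjusted p = 0.23). None of the 10 passed the threshold, and their part in the Fbln5 and Mfap5 values was not tested.

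In the ANXA5 knockout Fbn1 was close to the wild type in the mean, with less spread. It had 55047, 39898, 49120 and 53856 normalised reads in knockout libraries 1 to 4 and 28221, 31047, 70578 and 61932 in the wild type, so all 4 knockout libraries fell in the gap between the low and the high wild type pair. The log2 difference was 0.15 (limma adjusted p = 0.847). Mfap4 was split within the knockout, with 4068 and 3500 in libraries 1 and 3 and 1425 and 1542 in libraries 2 and 4, against 3015, 2319, 1644 and 1121 in the wild type. Its log2 difference was 0.32 with a 95% interval of -0.56 to 1.20, which holds both directions.

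Fbn2 stood at 280.5, 186, 164 and 125 normalised reads in the ANXA5 knockout against 63.7, 122, 103 and 227 in the wild type. Its log2 difference was 0.64 with a 95% interval of -0.17 to 1.44 (limma adjusted p = 0.506), again with wild type library 4 inside the knockout range. Ltbp4, Lox, Loxl1 and Efemp2 had log2 differences of 0.075, 0.094, 0.027 and -0.070. The 95% interval of Efemp2 ran from -0.30 to 0.16 and that of Loxl1 from -0.34 to 0.40.

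When the ANXA2 and ANXA5 knockouts were set against each other directly, in 1 fit over all 11 libraries, 9 of the 10 members were higher in the ANXA2 knockout, and 0 passed the limma threshold, as 0.298% of 16791 genes did. The median was 0.27, beside 0.0060 and 51.0% above 0 for all genes. At an unadjusted limma p under 0.05 stood 2 members, Loxl1 and Fbn2, against 13.6% of all genes, and 0 to 3 did with 1 library left out. Loxl1 stood at 10556 ± 1905 (SD, n = 3) against 7816 ± 992 (SD, n = 4) normalised reads, with no overlap between the knockouts (6.6% of all genes were separate with the ANXA2 knockout higher and 5.96% with it lower). Its log2 difference was 0.43 (limma adjusted p = 0.345). Fbn2 differed by 0.83 (limma adjusted p = 0.368) with overlapping libraries, and Eln by 0.45 with a 95% interval of -0.084 to 0.97. Mfap4 was the member below 0, at -0.076, with a 95% interval of -0.93 to 0.77.

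Other genes of the pathway were read from lists made by hand from known functions. Of 12 further microfibril and microfibril-modifying genes, 8 were above 0 in the ANXA2 knockout with a median of 0.25 (7 and 0.11 with library totals), and 0 passed the limma threshold. Mfap2, a microfibril glycoprotein related to Mfap5, stood at 2370 ± 186 (SD, n = 3) normalised reads against 1848 ± 122 (SD, n = 4), with groups that did not overlap and a log2 difference of 0.36 (limma adjusted p = 0.478). Ltbp1, a latent TGF-beta binding protein, differed by 0.43 (limma adjusted p = 0.578). In the ANXA5 knockout 7 of the 12 were above 0, with a median of 0.084, and the lowest p were those of Adamtsl5 at -0.47 and Adamtsl3 at -0.53 (limma adjusted p = 0.23 and 0.303), members of a family that binds fibrillin.

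Among 9 other fibulins and emilins 0 passed in either knockout. Emilin2 and Emilin1, glycoproteins at the border of elastin and microfibrils, differed by 0.31 and 0.23 in the ANXA2 knockout, where 6 of 9 were above 0 (5 with library totals). With ANXA5 knocked out, 2 of 9 were above 0, Efemp1 differed by -0.57 and Mmrn2 by 1.05. Mmrn2 is an endothelial member of the emilin family, and the summed endothelial markers stood beside it at 5197 to 7832 normalised reads against 3896 to 5200 in the wild type; their part was not tested.

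Of 11 genes for other lysyl oxidases, for processing, for chaperones and for copper supply, 8 were above 0 in the ANXA2 knockout (5 with library totals) and 3 in the ANXA5 knockout, and 0 passed. Atox1, a copper chaperone that feeds the pump which loads lysyl oxidases, differed by 0.47 in the ANXA2 knockout (limma adjusted p = 0.524) and Loxl3 by 0.28. The metalloproteases Tll1 and Tll2 differed by -0.61 and -1.40 in the ANXA5 knockout, the latter at 8.51 ± 5.29 normalised reads.

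TGF-beta ligands and activators, 11 of 12 of them tested, were all 11 above 0 in the ANXA2 knockout with a median of 0.19, though 6 with a median of 0.053 when library totals were used, and 4 of 11 were above 0 in the ANXA5 knockout with a median of -0.15. None passed in either. Tgfb2, a ligand, differed by 0.25 (limma adjusted p = 0.565) and Lrrc32, which anchors latent TGF-beta on cells, by 0.40 in the ANXA2 knockout. In the ANXA5 knockout Itgb8, a subunit of an activating integrin, differed by -0.66 and Nrros, an anchor on myeloid cells, by 0.43 (limma adjusted p = 0.23 and 0.27). All 10 macrophage markers were above 0 there, and their part in the Nrros value was not tested.

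Elastin-degrading enzymes and their inhibitors, 15 of 17 tested, had 14 above 0 in the ANXA2 (11 with library totals) and 9 in the ANXA5 knockout, with medians of 0.19 and 0.27, and 0 passed. Ctsk, a cathepsin that cleaves elastin and collagen, differed by 0.27 and Timp4, an inhibitor of metalloproteases, by 0.96 in the ANXA2 knockout. Ctss, a cathepsin of macrophages, stood in the ANXA5 knockout at 2143 ± 267 against 1456 ± 88.9 normalised reads (SD, n = 4 each), a log2 difference of 0.55 (limma adjusted p = 0.185). Timp4 was at 169 ± 113 against 26.2 ± 19.5 there, a difference of 2.75 (limma adjusted p = 0.229). The macrophage markers summed to 111761 to 134450 in the ANXA5 knockout and to 76429 to 118291 in the wild type beside Ctss, and their part was not tested.

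The elastin receptor complex, which binds fragments of elastin, held the only gene of these lists that passed the threshold. Glb1, the beta-galactosidase gene whose spliced product is the elastin-binding subunit, fell in the ANXA2 knockout to 696 ± 34.5 normalised reads (SD, n = 3) from 1323 ± 84.6 (SD, n = 4), a log2 difference of -0.92 (limma adjusted p = 0.0112). Its values were 722, 710 and 657 in the knockout and 1446, 1280, 1305 and 1259 in the wild type, with no overlap. The counts do not separate the spliced form from the lysosomal enzyme. The adjusted p was 0.0933 without knockout library 3 and 0.0667 without wild type library 2. Glb1 is on chromosome 9, as Anxa2 is, 44.9 Mb away in GRCm38. Its partners Ctsa and Neu1 did not pass, and in the ANXA5 knockout Glb1 differed by -0.029 (limma adjusted p = 0.895).

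**Figure D3:**
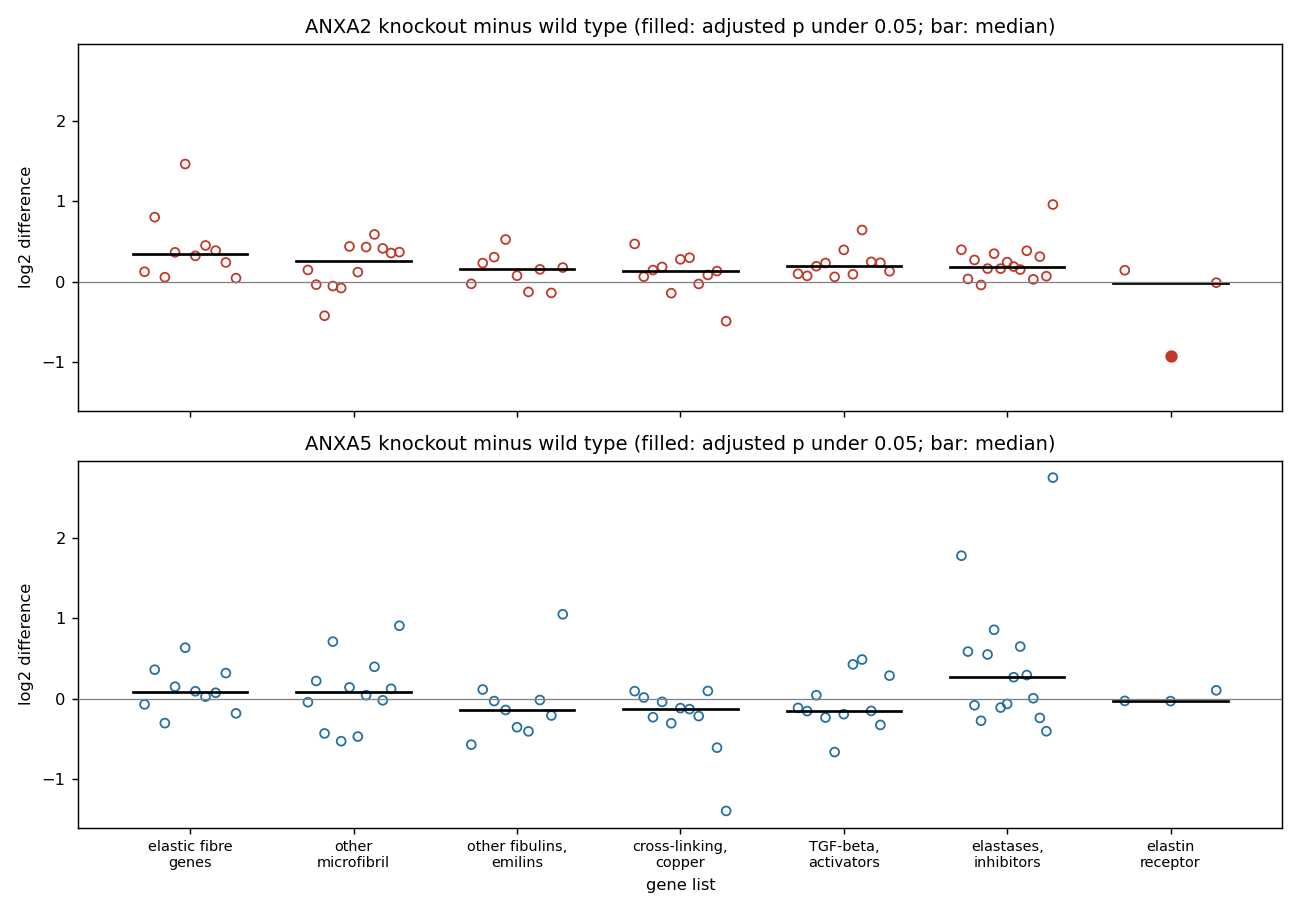
Log2 difference from wild type (normalised reads + 1) of the tested genes in the elastic fibre group and 6 related lists, for the ANXA2 knockout (upper panel) and the ANXA5 knockout (lower panel). Circles are genes, black bars list medians, and filled circles genes with a limma adjusted p under 0.05; the filled circle is Glb1, at -0.92 in the ANXA2 knockout.

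The members did not vary together as 1 block over the 11 libraries. After each gene was centred on its own mean of log2 values, Fbln5 and Mfap5 were nearest, with a root mean square difference of 0.13, followed by Efemp2 and Mfap5 with 0.19, Loxl1 and Ltbp4 with 0.21 and Fbn1 and Ltbp4 with 0.23. The farthest pair was Fbn2 and Mfap4, at 0.92. The measure grows with the spread of the genes, so a small value alone does not show that genes moved together. That of Efemp2 and Mfap5, for instance, was larger than the SD of Efemp2 itself. Fbn2 had the largest SD over the libraries (0.80 on the log2 scale), then Mfap4 (0.57) and Eln (0.47), while Efemp2 had the smallest (0.15). Among genes with a mean of at least 50 normalised reads, Fbn2 lay at the 98.5th percentile and Efemp2 at the 26.8th. These are descriptions over libraries that share depth and genotype differences.

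**Figure D4:**
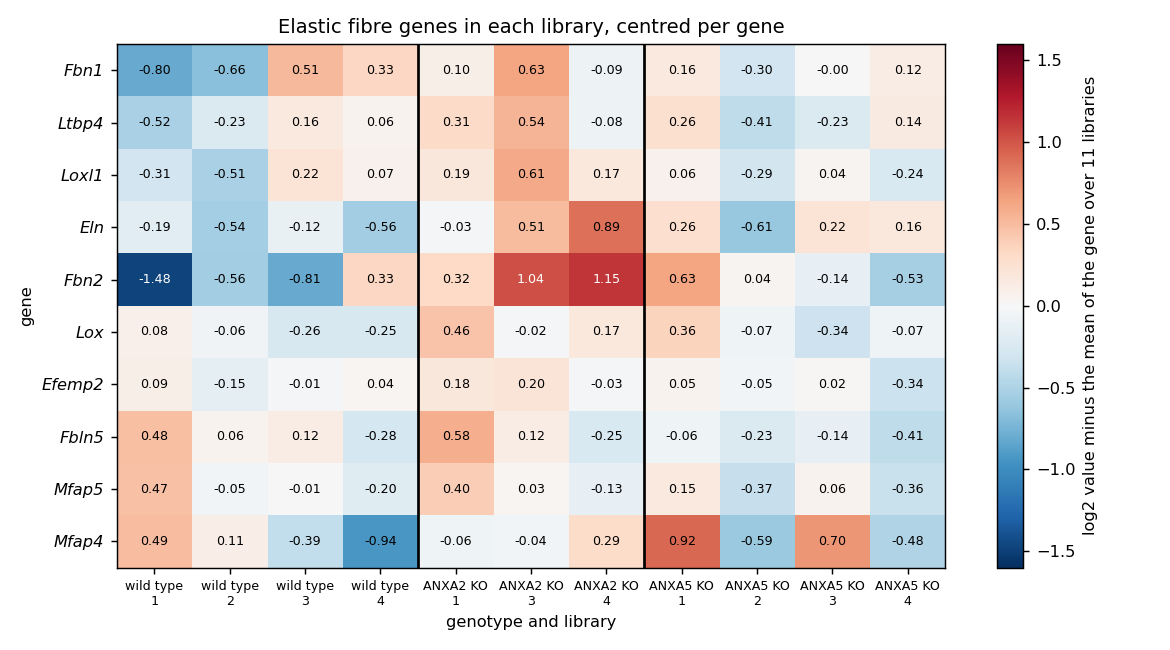
Log2 value of each elastic fibre gene in each of the 11 libraries minus the mean of that gene (colour and printed number; red above, blue below the mean), with libraries in columns by genotype. Fbn1, Ltbp4 and Loxl1 are low in wild type libraries 1 and 2, where Mfap4 is above its mean, and Eln is highest in ANXA2 knockout library 4 at 0.89.

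Much of the spread of Fbn1 and its neighbours lay within the wild type. Fbn1, Ltbp4 and Loxl1 were lower in wild type libraries 1 and 2 than in 3 and 4, and Mfap4 and Lox were higher there. Xist, the RNA of the inactive X chromosome, was at 1726 and 2409 reads in wild type libraries 1 and 2 and at 1 read each in 3 and 4, and the summed stromal markers were at 371962 and 430794 normalised reads against 749974 and 680034. In the ANXA5 knockout the library with 2 Xist reads, library 2, had the lowest Fbn1 of its group. With Xist as a covariate the Fbn1 difference from wild type was 0.63 in place of 0.37 in the ANXA2 knockout and 0.25 in place of 0.15 in the ANXA5 knockout, and neither passed (limma adjusted p = 0.185 and 0.63). The part of the stromal markers in the Fbn1 levels was not tested.

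Upstream sequences of Fbn1 and Ltbp4 are shown because this pair was among the closest of the 10 over the libraries. The RefSeq promoter table (GRCm38.p6) matched 4 of the 10 members, Fbn1, Ltbp4, Fbln5 and Efemp2. Eln, Mfap4, Mfap5 and Loxl1 had no entry. The windows of the chromosome that carries Fbn2 and Lox were left out before matching, so entries for these genes were not looked for. Each line gives the 250 bases before a start site, on the minus strand of chr2:125506439-125506688 for Fbn1 and of chr7:27337613-27337862 for the farthest upstream of the 3 start sites of Ltbp4. Capitals mark the GC box, searched as GGGCGG on both strands with overlaps counted.
Fbn1: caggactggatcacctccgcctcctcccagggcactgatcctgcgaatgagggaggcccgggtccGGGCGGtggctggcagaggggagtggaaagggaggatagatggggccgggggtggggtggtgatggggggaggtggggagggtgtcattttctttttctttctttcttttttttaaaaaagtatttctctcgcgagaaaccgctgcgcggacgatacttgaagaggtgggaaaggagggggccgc
Ltbp4: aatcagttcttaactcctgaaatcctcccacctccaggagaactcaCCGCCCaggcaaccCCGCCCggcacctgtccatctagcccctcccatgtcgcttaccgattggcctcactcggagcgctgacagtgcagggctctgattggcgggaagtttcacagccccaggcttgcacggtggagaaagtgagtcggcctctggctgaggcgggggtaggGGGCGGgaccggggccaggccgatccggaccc

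The Fbn1 window held 1 GC box and the printed Ltbp4 window 3, whereas the windows of the other Ltbp4 start sites held 5 and 7. The motif was found in 32.7% of 32851 promoter windows of the same length outside chromosome 18. Neither printed window held TATAAA, the letters CAGAC of a SMAD element or the AP-1 letters TGANTCA. Of the 32851 windows, 12.4%, 42.2% and 6.75% held these on either strand. These are matches of letters only, and no binding was measured.

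Among the genes whose pattern over the 11 libraries was most like that of Eln were Tead2, Aplp1, Sirpb1a and Adgre4, out of 12783 genes with a mean of at least 50 normalised reads outside the lists. Their root mean square differences from Eln were 0.21, 0.23, 0.26 and 0.26, against an SD of Eln itself of 0.47. Sirpb1a has near-identical copies in the genome, so its counts are uncertain. Members of the group and genes of the lists were not considered.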

How the data were processed

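RNA-seq tables of 11 libraries were the input, without raw reads. Per the submitters' processing notes, Trim Galore, STAR, HTSeq and DESeq2 were used with the build GRCm39; the sources used here give neither tool versions nor the strand of counting, so overlapping antisense genes cannot be told apart. In the tables the authors deposited, the signal is the read count divided by a size factor per library; multiplied back, 100% of values were whole within 0.001, and these are the recovered reads. The log2 fold changes and p-values the authors deposited come from DESeq2 per the file headers, and the score column of the deposited tables was not used. Columns of the ANXA2 knockout carry numbers 1, 3 and 4, not those of the titles, and were matched to the group only; 0 sample columns were left out.

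Each knockout was compared with the wild type by limma-trend on log2 (value + 1), two-sided, for genes that reached a value of 10 in a number of libraries equal to the size of the smaller group. Benjamini-Hochberg adjustment was made over all genes tested, with a threshold of 0.05. This test for normalised values was kept as the main one, with edgeR and DESeq2 fits on the recovered reads as alternatives. The knockouts were compared in 1 limma fit of 11 libraries after median-of-ratios scaling. R 4.3.3, limma 3.58.1, edgeR 4.0.16 and DESeq2 1.42.0 were used, and the scripts were tested on simulated data. Other alternatives were pseudocounts of 0.5 and 5, no filter, a minimum of 50, TMM scaling, Xist as a covariate, a replicate block, leaving out each library and, added after the data were seen, scaling by library totals. Lengths and positions were taken from the vM21 release of GENCODE (GRCm38, a build other than the one the submitters name); 99.5% of identifiers had a length.

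The members and lists were chosen with earlier results of these data known. Named genes were all members, each gene of a list past the threshold and the 2 genes of each list with the smallest unadjusted p in each comparison, and the 5 genes most like Eln. One result under this rule is not reported here. The names of marker genes are given where their list stands beside a result.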

Additional observations from a re-analysis of the deposited data

Results flagged for a closer look

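Eln in ANXA5 knockout library 2 stood apart from the other libraries of its group, at 6937 normalised reads against 11915 to 12730, with a gap of 0.859 of the whole range of the 4 libraries. It was 1 of 39 groups of 4 libraries examined, and chance gives about 1 in 20. Glb1 of the elastin receptor complex differed between the knockouts by -0.89 on the log2 scale (ANXA2 minus ANXA5 knockout, limma adjusted p = 0.000352), with 3 of 3 ANXA2 knockout libraries below 4 of 4 ANXA5 knockout libraries.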

How the results depend on the processing

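The count of 0 members past the threshold was the same under every alternative run in all 3 comparisons. Of 160, 180 and 140 single-member alternatives in the ANXA2, ANXA5 and direct comparisons, 150, 170 and 138 kept the direction and 10, 10 and 2 turned it. In the ANXA2 comparison Fbln5 and Mfap5 were at -0.041 and -0.038 with the Xist covariate, and with library totals Fbln5 was at -0.083, Mfap5 at -0.095 and Efemp2 at -0.016. Leaving out 1 library gave -0.16 to 0.26 for Fbln5, -0.011 to 0.47 for Mfap4 and -0.10 to 0.19 for Mfap5 there. In the ANXA5 comparison it gave -0.066 to 0.37 for Fbn1, -0.12 to 0.018 for Efemp2, -0.036 to 0.20 for Lox, -0.10 to 0.15 for Loxl1, -0.056 to 0.19 for Ltbp4 and -0.063 to 0.013 for Glb1, and in the direct comparison -0.32 to 0.18 for Mfap4. Over all genes, 18 passed in the ANXA2 comparison, 104 with DESeq2, 284 with the Xist covariate and 8 to 16 with 1 library left out (8 without knockout library 3, 11 without wild type library 2, 10 without wild type library 4). Of the 18, 9 were higher and 9 lower in the knockout, and with library totals 5 and 11. In the ANXA5 comparison 5 passed, 282 with DESeq2, 8 with the replicate block and 4 to 32 with 1 library left out (32 without wild type library 4). The cause was not tested. Same-numbered ANXA5 knockout and wild type libraries did not deviate together (correlations of 0.048, -0.12, -0.32 and 0.092, against -0.21 to 0.32 for the other pairs). This gave no sign of pairing by number, but so few libraries cannot exclude it. With the block, 0 members passed. No paired analysis was possible for the ANXA2 comparison because its columns do not carry the numbers of the titles. Fbn2 had the fewest reads, 55 in its lowest library, and its spread between libraries still exceeded counting error.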
